A study of Mus musculus with 29 samples.

Results

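The alternative pathway of bile acid synthesis and the conjugation of bile acids are covered here by 10 genes named by symbol: Cyp7b1, Cyp27a1, Hsd3b7, Akr1d1, Akr1c6, Baat, Slc27a5, Slc27a2, Acox2 and Amacr. They are 10 of 22180 genes with a row of their own on the arrays, and all 10 were among the 14699 tested. Each gene was measured by its row, or by the row of highest mean where it had more than 1, which concerned Slc27a2 alone. They were picked by symbol and not by a cutoff on measured values, but with earlier results of these data known.

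The livers came from male wild-type C57BL/6N mice aged 8 to 10 weeks, fed a standard diet ad libitum, and each array stands for 1 liver as the labels read. In the ligated groups (BDL) the extrahepatic common bile duct was tied, and livers were taken at day 1, day 3, day 7 and day 21, with 5 arrays for each of these times. The sham groups were operated on without ligation. Day 1 of sham has 3 arrays, day 3 has 2 and day 7 has 4. A sham group of day 21 was not analysed here, so BDL at day 21 was set against sham at day 7, where time since surgery and ligation cannot be told apart, and this comparison and that of day 7 share their sham arrays. Values are log2 expression after robust multi-array averaging (RMA), which brings all arrays to a common scale, and a level of 1 gene on this scale says nothing about the level of another.

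The liver makes bile acids from cholesterol along a classical route, which Cyp7a1 opens, and an alternative route, which Cyp27a1 and Cyp7b1 open by acting on the side chain and then on the ring. Further enzymes then modify the sterol ring, and enzymes of the peroxisome shorten the side chain. Coenzyme A ligases activate bile acids and their precursors. Baat joins the activated bile acid to taurine or glycine, which makes it more soluble and keeps it from crossing membranes freely.

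All array medians lay between 4.90 and 5.13, and arrays correlated in pairs at 0.889 to 0.990. A set of 4 arrays of day 1 had a narrower spread than the rest, namely BDL replicates 2 and 3 and sham replicates 1 and 3. Their log2 values over the genes tested had an SD of 1.55 to 1.58, against 1.64 to 1.70 in the other arrays, and small nucleolar RNAs (71 genes) averaged 9.02 to 9.49 in them, against 7.72 to 8.53 elsewhere. They hold 2 of 5 BDL and 2 of 3 sham arrays of day 1. Member values of day 1 are given for this set and without it.

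Across days 1, 3 and 7, each day set against its own sham group, 7 of the 10 genes were lower in BDL and 1 was higher. Cyp7b1 fell most, 5.4-fold, followed by Akr1c6, 2.31-fold, and Slc27a2, 1.8-fold. Hsd3b7, Slc27a5, Cyp27a1 and Amacr were lower by 1.6-fold, 1.57-fold, 1.35-fold and 1.23-fold. Acox2 was higher by 1.33-fold, while Akr1d1 and Baat did not pass. Calls are adjusted p-values below 0.05 from limma, Benjamini-Hochberg over all genes tested. By that rule 10.8% of all genes tested were lower and 19.8% higher in the same comparison. The median log2 difference was -0.54 over the 10 genes and 0.02 over all genes tested.

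**Figure D1:**
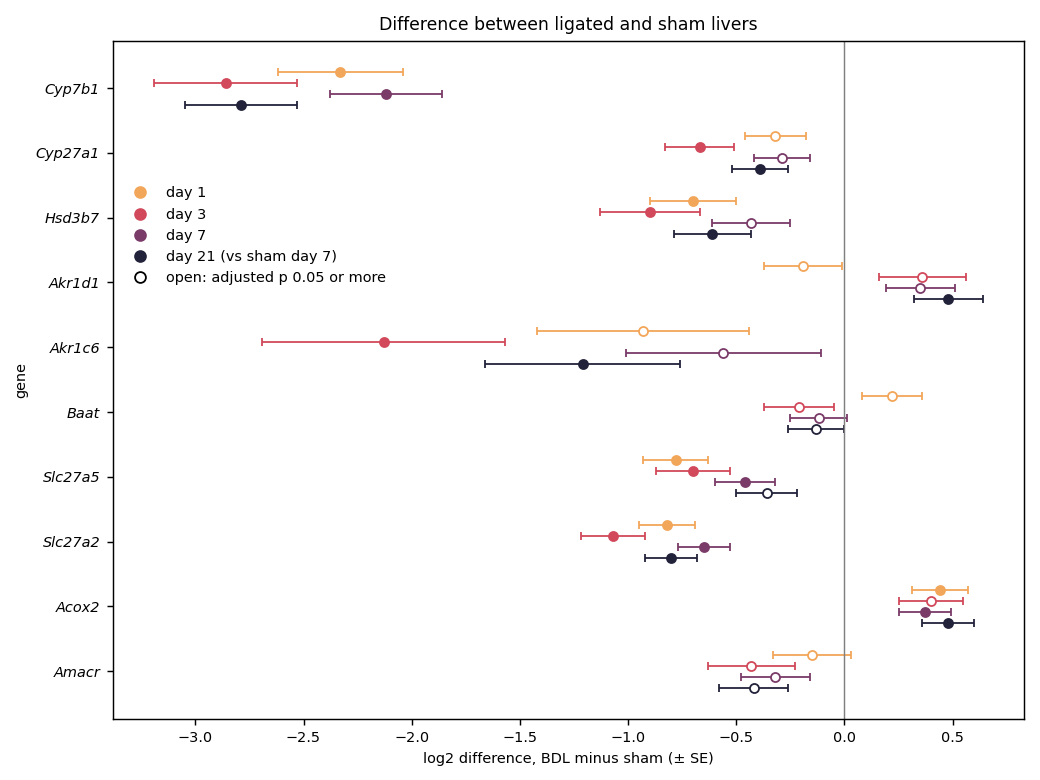
Log2 difference between BDL and sham livers (horizontal axis, BDL minus sham, bars ± SE of the limma fit) for each of the 10 genes and for days 1, 3, 7 and 21, the last against the sham arrays of day 7. Filled points have an adjusted p below 0.05 and open points do not. Cyp7b1 lies between -2.86 and -2.12 at all 4 days, Slc27a2 between -1.07 and -0.65, Acox2 between 0.37 and 0.48, and Baat between -0.21 and 0.22.

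By day, the genes that passed were 4 lower and 1 higher at day 1 (background 4.8% of all genes lower and 8.52% higher), and 6 lower and 0 higher at day 3 (3.69% and 6.47%). At day 7 they were 3 lower and 1 higher (4.97% and 14.2%). At day 21 against sham at day 7 they were 5 lower and 2 higher (7.9% and 17.3%). Cyp7b1 and Slc27a2 passed as lower at all 4 days. For all genes tested, the balance of higher to lower calls moved with the scaling of the arrays. At day 1 it was 1252 higher and 706 lower, and 1109 and 995 after cyclic loess. At day 21 it was 2537 and 1161, and 2976 and 735 after median centring. At an unadjusted p below 0.05, 6, 8, 7 and 9 of the 10 genes passed at days 1, 3, 7 and 21, against 25.9%, 22.5%, 30.5% and 34.9% of all genes.

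The start regions of 4 of these genes are shown because their transcripts went both ways, Slc27a2 and Hsd3b7 lower and Acox2 and Akr1d1 higher in at least 1 comparison. Each is the RefSeq window from 250 bases before to 50 bases after a transcript start in GRCm38.p6. The table matched 6 of the 10 genes by symbol, with 7 windows, and Cyp7b1, Slc27a5, Baat and Amacr were not matched. Sequences run 5′ to 3′ on the strand of the gene, with the motif matches described next in capitals. The positions are Slc27a2 chr2:126552774-126553073 (+), Hsd3b7 chr7:127800359-127800658 (+), Akr1d1 chr6:37529923-37530222 (+) and Acox2, the first of its windows, chr14:8258970-8259269 (-).
Slc27a2: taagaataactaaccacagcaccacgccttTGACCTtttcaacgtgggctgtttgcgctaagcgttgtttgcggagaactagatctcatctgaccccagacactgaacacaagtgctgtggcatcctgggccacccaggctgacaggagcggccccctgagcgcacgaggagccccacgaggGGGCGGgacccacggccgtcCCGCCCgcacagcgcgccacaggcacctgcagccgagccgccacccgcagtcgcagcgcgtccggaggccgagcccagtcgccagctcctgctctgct
Hsd3b7: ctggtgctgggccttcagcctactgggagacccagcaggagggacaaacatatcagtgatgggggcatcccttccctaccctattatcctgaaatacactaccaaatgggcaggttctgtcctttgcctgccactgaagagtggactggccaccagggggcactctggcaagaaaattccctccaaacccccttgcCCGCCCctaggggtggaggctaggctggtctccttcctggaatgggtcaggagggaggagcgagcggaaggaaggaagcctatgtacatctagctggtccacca
Akr1d1: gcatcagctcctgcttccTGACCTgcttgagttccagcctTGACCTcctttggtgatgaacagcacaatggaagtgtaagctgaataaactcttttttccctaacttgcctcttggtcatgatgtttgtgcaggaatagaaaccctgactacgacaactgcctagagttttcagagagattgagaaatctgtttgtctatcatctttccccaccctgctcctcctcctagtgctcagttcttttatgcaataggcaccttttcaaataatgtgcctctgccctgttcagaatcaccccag
Acox2: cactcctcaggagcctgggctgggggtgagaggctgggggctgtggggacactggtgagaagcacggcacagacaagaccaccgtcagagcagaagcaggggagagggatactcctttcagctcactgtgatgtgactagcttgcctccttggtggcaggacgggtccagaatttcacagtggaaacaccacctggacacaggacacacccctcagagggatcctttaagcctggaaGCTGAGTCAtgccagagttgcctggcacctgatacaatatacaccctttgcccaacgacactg
Both strands were searched for 6 motifs. The nuclear receptor half-site AGGTCA was found on the antisense strand of Akr1d1 at -232 to -227 and at -210 to -205 from the start, and of Slc27a2 at -220 to -215. The GC box GGGCGG was found in Slc27a2 on the sense strand at -68 to -63 and on the antisense strand at -48 to -43. In Hsd3b7 at -54 to -49 and in Cyp27a1 at -28 to -23 it was found on the antisense strand, where the printed strand reads CCGCCC. The antioxidant response core TGACNNNGC was found on the antisense strand of Acox2 at -13 to -5, and its other window covers the same site. The TATA box TATAAA was found in Akr1c6 at -164 to -159. No member window held the HNF4 motif CAAAGTCCA or the HNF1 half-site GTTAAT, and no match overlapped another. Over all 32851 windows of the table, 16.3% held the half-site, 35.7% the GC box, 12.4% the antioxidant core, 13.6% the TATA box, 0.475% the HNF4 motif and 7.1% the HNF1 half-site. These are matches of letters in one window per start, and binding was not measured.

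Cyp7b1, the hydroxylase that adds the ring hydroxyl to oxysterols of the alternative pathway, was the member that moved most. At day 1 its log2 values were 8.54, 8.56, 7.99, 8.23 and 9.0 in BDL, against 10.13, 11.48 and 10.76 in sham. At day 3 they were 8.53, 8.90, 7.99, 7.86 and 7.64 in BDL, against 10.53 and 11.55 in sham. No BDL array reached the lowest sham array at either day. At day 7 the values were 8.76, 8.74, 8.71, 8.70 and 9.02 in BDL, against 10.18, 11.10, 10.96 and 11.37 in sham. At day 21 BDL stood at 8.08, 7.84, 8.33, 8.28 and 8.06. Every one of the 20 BDL arrays thus lay below every one of the 9 sham arrays. The log2 difference was -2.33 ± 0.29 (SE) at day 1, -2.86 ± 0.33 at day 3, -2.12 ± 0.26 at day 7 and -2.79 ± 0.26 at day 21 against sham at day 7. The adjusted p in limma was at most 2.27e-06 over these 4 comparisons, and at most 0.000994 when any 1 array was left out. In fold terms Cyp7b1 was 5.02-fold lower at day 1, 7.24-fold at day 3, 4.34-fold at day 7 and 6.9-fold at day 21.

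Cyp27a1, the mitochondrial hydroxylase that oxidises the sterol side chain, moved far less. Its group means were 10.77 ± 0.23 (SD, n = 5) in BDL and 11.09 ± 0.30 (n = 3) in sham at day 1, 10.67 ± 0.25 (n = 5) in BDL and 11.34 ± 0.13 (n = 2) in sham at day 3, and 10.82 ± 0.08 (n = 5) in BDL and 11.11 ± 0.16 (n = 4) in sham at day 7. BDL at day 21 stood at 10.72 ± 0.12 (n = 5). At day 3 the BDL arrays, 10.88, 10.96, 10.60, 10.56 and 10.35, lay below the sham arrays, 11.44 and 11.25, and at the other days the groups overlapped. The log2 difference passed at day 3 (-0.67 ± 0.16, adjusted p = 0.00651) and at day 21 (-0.39 ± 0.13, adjusted p = 0.0264). It did not pass at day 1 (-0.32 ± 0.14, adjusted p = 0.138) or at day 7 (-0.29 ± 0.13, adjusted p = 0.117). Over the mean of days it was -0.43 ± 0.08 (adjusted p = 0.000199). The day 3 call was lost without sham day 3 replicate 1 (adjusted p = 0.116), and the day 21 call without any 1 of 5 arrays, which were BDL replicates 4 and 5 of day 21 and sham replicates 2, 3 and 4 of day 7 (adjusted p up to 0.0787).

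Both opening enzymes of the alternative route were then compared within arrays, which asks whether they changed equally. The log2 value of Cyp7b1 minus that of Cyp27a1 averaged -2.31 in BDL and -0.30 in sham at day 1, -2.49 in BDL and -0.30 in sham at day 3, and -2.03 in BDL and -0.21 in sham at day 7. The mean over days of the BDL minus sham gap was -2.0 (exact permutation within days, two-sided, p = 6.75e-06, the smallest it can give; adjusted p = 2.02e-05 over 6 pairs). The highest BDL array, -1.82, lay below the lowest sham array, -0.96. Cyp7b1 thus fell by more than Cyp27a1.

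Cyp7a1, which opens the classical route, and Cyp8b1, which directs that route to cholic acid, are not among the 10 genes and are given for comparison. Cyp7a1 differed by -5.65 ± 0.86 at day 1 (adjusted p = 4.5e-05), -3.43 ± 0.99 at day 3 (adjusted p = 0.023), 0.87 ± 0.79 at day 7 (adjusted p = 0.503) and -0.14 ± 0.79 at day 21 (adjusted p = 0.921). Its BDL mean at day 1 was 4.29, under the level of 5, so the size of that fall depends on the background. The day 3 call was lost without BDL replicate 3, 4 or 5 or either sham array (adjusted p up to 0.204). Cyp8b1 was lower at each of these days, with log2 differences of -5.07, -5.36, -1.62 and -3.02. The log2 value of Cyp7b1 minus that of Cyp7a1 averaged 4.17 in BDL and 0.85 in sham at day 1, 0.53 in BDL and -0.05 in sham at day 3, and -2.69 in BDL and 0.31 in sham at day 7. The BDL arrays of day 3 ranged from -2.46 to 3.02 in this value. Cyp7a1 itself stood at 10.99 and 10.08 in BDL day 3 replicates 1 and 2, and at 5.74, 6.84 and 4.62 in replicates 3, 4 and 5. The gap between BDL and sham was 3.32 at day 1 alone (exact permutation adjusted p = 0.0357 over 6 pairs) and -2.99 at day 7 alone (exact permutation adjusted p = 0.0119). It thus had opposite signs at days 1 and 7, and its mean over days, 0.30, did not pass (exact permutation p = 0.725). In limma the BDL effect at day 7 minus that at day 1 passed for Cyp7a1 (6.52 ± 1.17, adjusted p = 0.00193) and Cyp8b1 (3.44 ± 0.57, adjusted p = 0.00101), and for none of the 10 members.

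**Figure D2:**
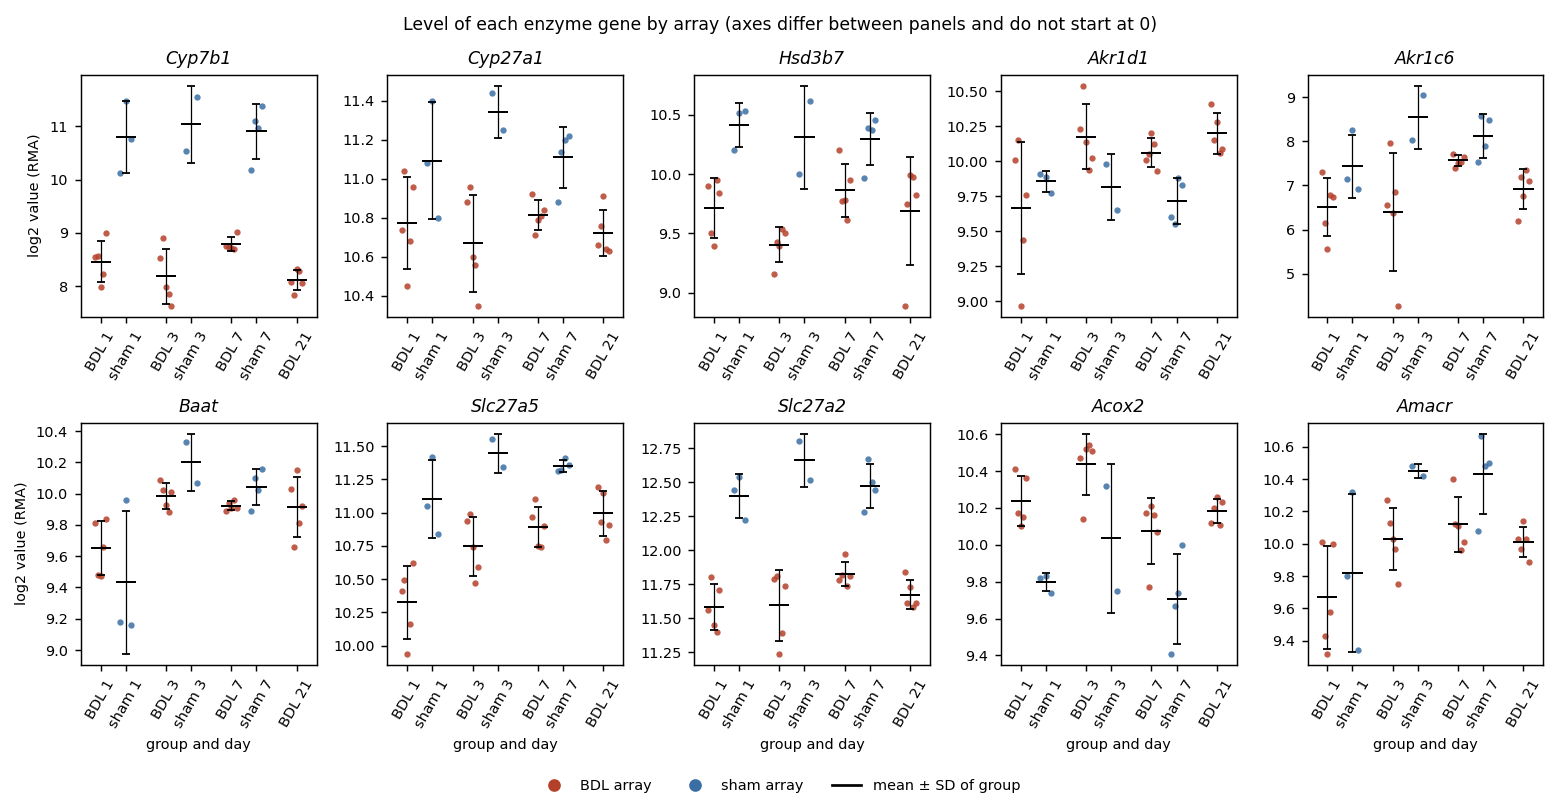
Log2 expression of each of the 10 genes (vertical axes, which differ between panels and do not start at 0) by group and day, with 1 point per array, BDL arrays in red, sham arrays in blue, and black lines for the mean ± SD of each group. The Cyp7b1 points of BDL, 7.64 to 9.02, all lie below those of sham, 10.13 to 11.55, and Akr1c6 has 1 BDL array of day 3 at 4.28.

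Among the enzymes of the sterol ring, Hsd3b7, the oxidoreductase that both routes need to turn the ring into its keto form, was lower in BDL. At day 1 it had log2 values of 9.90, 9.50, 9.39, 9.95 and 9.84 in BDL, against 10.20, 10.52 and 10.53 in sham. At day 3 it had 9.16, 9.43, 9.39, 9.54 and 9.50 in BDL, against 10.00 and 10.62 in sham. The groups did not overlap at these days. At day 7 it had 10.20, 9.77, 9.78, 9.61 and 9.95 in BDL, against 9.97, 10.39, 10.37 and 10.46 in sham. At day 21 it had 8.89, 9.75, 9.99, 9.98 and 9.82 in BDL. BDL and sham arrays overlapped at both of these days. The log2 difference was -0.70 ± 0.20 at day 1 (adjusted p = 0.0164), -0.90 ± 0.23 at day 3 (adjusted p = 0.00875), -0.43 ± 0.18 at day 7 (adjusted p = 0.0981) and -0.61 ± 0.18 at day 21 (adjusted p = 0.0126). The call of day 1 was lost without sham day 1 replicate 3 (adjusted p = 0.08) and that of day 3 without sham day 3 replicate 2 (-0.59, adjusted p = 0.267). Day 7 passed without BDL day 21 replicate 1, the array at 8.89 (adjusted p = 0.0343).

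Akr1d1, the reductase that sets the bend between the first rings of a bile acid, did not pass as lower in any comparison of BDL with sham. Its group means were 9.67 ± 0.47 (SD, n = 5) in BDL and 9.85 ± 0.07 (n = 3) in sham at day 1, 10.18 ± 0.23 (n = 5) in BDL and 9.81 ± 0.24 (n = 2) in sham at day 3, and 10.06 ± 0.10 (n = 5) in BDL and 9.71 ± 0.16 (n = 4) in sham at day 7. At day 21 its BDL arrays, 10.41, 10.15, 10.28, 10.06 and 10.09, all lay above the sham arrays of day 7, 9.60, 9.55, 9.88 and 9.83. The day 21 difference was 0.48 ± 0.16 (adjusted p = 0.0266), and it was lost without any 1 of 4 arrays, which were BDL replicates 1 and 3 of day 21 and sham replicates 1 and 2 of day 7 (adjusted p up to 0.0879). At days 1, 3 and 7 the differences of -0.19, 0.36 and 0.35 did not pass (adjusted p = 0.551, 0.297 and 0.138). BDL day 1 replicate 3, at 8.97, and replicate 4, at 9.44, lay below all sham arrays, and without replicate 3 the mean over days passed (0.23, adjusted p = 0.0359, against 0.17 and 0.215 with it).

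Akr1c6, a mouse hydroxysteroid dehydrogenase of the family whose human member AKR1C4 reduces the ring keto group in bile acid synthesis, was the noisiest member. At day 3 its log2 values were 6.56, 7.96, 6.37, 6.86 and 4.28 in BDL, against 8.03 and 9.05 in sham. At day 21 they were 6.19, 7.18, 6.76, 7.35 and 7.09 in BDL, against 7.52, 8.57, 7.90 and 8.49 in sham at day 7. The groups did not overlap in these comparisons, though the array at 4.28 lies below the level of 5 that a gene had to exceed in at least 3 arrays to be tested. The log2 difference was -2.13 ± 0.56 at day 3 (adjusted p = 0.0122) and -1.21 ± 0.45 at day 21 (adjusted p = 0.0474). Without sham day 3 replicate 2 the day 3 call was lost (-1.60, adjusted p = 0.222), and the day 21 call was lost without any 1 of 19 of the 29 arrays (adjusted p up to 0.134). It held without BDL replicates 1 or 3 of day 1, 2 or 5 of day 3 or 4 of day 21, and without sham replicates 2 or 3 of day 1, either of day 3 or 1 of day 7. At day 1 the means were 6.51 ± 0.66 (n = 5) in BDL and 7.44 ± 0.71 (n = 3) in sham, and at day 7 they were 7.56 ± 0.13 (n = 5) in BDL and 8.12 ± 0.50 (n = 4) in sham. These differences, -0.93 ± 0.49 and -0.56 ± 0.45, did not pass (adjusted p = 0.233 and 0.44). Akr1c6 has close relatives in the mouse genome, and probes may not separate them fully. The log2 value of Akr1d1 minus that of Akr1c6 was larger in BDL than in sham, by 1.38 over the mean of days (exact permutation p = 8.1e-05; adjusted p = 0.000121 over 6 pairs).

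At the activation step, Slc27a5 and Slc27a2 were both lower in BDL. Slc27a5 is the bile acid coenzyme A ligase of hepatocytes, and its log2 values at day 1 were 10.41, 10.49, 9.94, 10.16 and 10.62 in BDL, against 11.05, 11.42 and 10.84 in sham. At day 3 they were 10.94, 10.99, 10.74, 10.47 and 10.59 in BDL, against 11.55 and 11.34 in sham. The groups did not overlap at either day. At day 7 they were 10.97, 11.10, 10.75, 10.74 and 10.90 in BDL, against 11.31, 11.32, 11.41 and 11.36 in sham. At day 21 they were 11.19, 10.93, 11.15, 10.79 and 10.91 in BDL. All of these BDL arrays lay below the sham arrays of day 7. The log2 difference was -0.78 ± 0.15 at day 1 (adjusted p = 0.000531), -0.70 ± 0.17 at day 3 (adjusted p = 0.00652) and -0.46 ± 0.14 at day 7 (adjusted p = 0.0162). At day 21 it was -0.36 ± 0.14 and just missed the threshold (adjusted p = 0.0547). The day 3 call was lost without sham day 3 replicate 1 (adjusted p = 0.122), and the day 21 difference passed without any 1 of 7 arrays (adjusted p down to 0.0362). These were BDL replicates 3 and 5 of day 1, 4 of day 3 and 1 and 3 of day 21, and sham replicates 2 and 3 of day 1.

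Slc27a2, a very long chain acyl coenzyme A synthetase that can also activate bile acid precursors, fell by a similar size. Its log2 values at day 1 were 11.56, 11.80, 11.45, 11.40 and 11.71 in BDL, against 12.44, 12.54 and 12.22 in sham. At day 3 they were 11.79, 11.81, 11.24, 11.39 and 11.74 in BDL, against 12.80 and 12.52 in sham. BDL and sham did not overlap at these days. At day 7 they were 11.78, 11.82, 11.97, 11.74 and 11.81 in BDL, against 12.28, 12.67, 12.50 and 12.44 in sham. At day 21 they were 11.84, 11.61, 11.73, 11.58 and 11.61 in BDL. As for Cyp7b1, every BDL array lay below every sham array of the study. The log2 difference was -0.82 ± 0.13 at day 1, -1.07 ± 0.15 at day 3, -0.65 ± 0.12 at day 7 and -0.80 ± 0.12 at day 21, with an adjusted p of at most 0.000177. No call was lost when 1 array was left out (adjusted p up to 0.00317). The 2 rows of Slc27a2 had means of 11.92 and 6.04 over the arrays, and the first was used.

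Baat, the enzyme that joins the activated acid to taurine or glycine, did not pass in any comparison of BDL with sham. Its log2 values at day 1 were 9.81, 9.48, 9.47, 9.66 and 9.84 in BDL, against 9.18, 9.96 and 9.16 in sham. At day 3 they were 10.09, 10.02, 9.93, 9.88 and 10.01 in BDL, against 10.33 and 10.07 in sham. At day 7 they were 9.89, 9.94, 9.91, 9.96 and 9.91 in BDL, against 9.89, 10.10, 10.02 and 10.16 in sham. The groups overlapped at each of these days, as did BDL at day 21, 9.66 to 10.15, with sham at day 7. The log2 differences were 0.22 ± 0.14, -0.21 ± 0.16, -0.12 ± 0.13 and -0.13 ± 0.13 at days 1, 3, 7 and 21 (adjusted p = 0.341, 0.476, 0.578 and 0.512). Over the mean of days the difference was -0.04 ± 0.08 (adjusted p = 0.767). The day 1 value rested on sham day 1 replicate 2, at 9.96, without which it was 0.48 and passed (adjusted p = 0.0065). That fit left sham day 1 replicates 1 and 3, both of the narrow set, against BDL arrays from inside and outside it. The difference was 0.31 within the 4 narrow arrays (limma adjusted p = 0.454), -0.19 without them and 0.09 with the set as a model term.

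The activating and joining steps thus did not move alike. The log2 value of Slc27a5 minus that of Baat averaged 0.67 in BDL and 1.67 in sham at day 1, 0.76 in BDL and 1.25 in sham at day 3, and 0.97 in BDL and 1.31 in sham at day 7. The BDL minus sham gap was -0.61 over the mean of days (exact permutation p = 6.75e-06; adjusted p = 2.02e-05 over 6 pairs). It was -1.0 at day 1 alone and -0.34 at day 7 alone (exact permutation adjusted p = 0.0357 and 0.019). Between both ligases the gap was smaller, 0.20 over the mean of days (exact permutation adjusted p = 0.0323 over 6 pairs), so Slc27a5 fell slightly less than Slc27a2. That call did not hold without the 4 day 1 arrays of narrow spread (0.17, exact permutation adjusted p = 0.0522), nor at any day alone.

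In the peroxisome, Acox2, the oxidase that begins the shortening of the bile acid side chain, was the member that was higher in BDL over the mean of days. Its log2 values at day 1 were 10.41, 10.17, 10.10, 10.15 and 10.36 in BDL, against 9.82, 9.83 and 9.74 in sham. At day 3 they were 10.47, 10.14, 10.52, 10.54 and 10.51 in BDL, against 10.32 and 9.75 in sham. The groups were apart at day 1 and overlapped at day 3 through BDL replicate 2 and sham replicate 1. At day 7 they were 10.17, 9.77, 10.21, 10.16 and 10.07 in BDL, against 9.41, 9.67, 9.74 and 10.00 in sham. At day 21 they were 10.12, 10.20, 10.26, 10.11 and 10.23 in BDL, all above the sham arrays of day 7. The log2 difference was 0.44 ± 0.13 at day 1 (adjusted p = 0.0229), 0.40 ± 0.15 at day 3 (adjusted p = 0.0935), 0.37 ± 0.12 at day 7 (adjusted p = 0.0285) and 0.48 ± 0.12 at day 21 (adjusted p = 0.00354). Over the mean of days it was 0.41 ± 0.08 (adjusted p = 0.000175). The day 1 call was lost when either BDL replicate 1 or 5, or either sham replicate 1 or 3, was left out (adjusted p up to 0.093). That of day 7 was lost when BDL replicate 1, 3 or 4, or else sham replicate 1 or 2, was left out (adjusted p up to 0.139). The day 21 call held in each case, and day 3 passed without BDL replicate 2 or sham replicate 1 of that day (adjusted p down to 0.0217).

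Amacr, the racemase that turns the side chain into the form Acox2 accepts, went the other way. Its group means were 9.67 ± 0.32 (SD, n = 5) in BDL and 9.82 ± 0.49 (n = 3) in sham at day 1, 10.03 ± 0.19 (n = 5) in BDL and 10.45 ± 0.05 (n = 2) in sham at day 3, and 10.12 ± 0.17 (n = 5) in BDL and 10.43 ± 0.25 (n = 4) in sham at day 7. BDL at day 21 averaged 10.01 ± 0.09 (n = 5). None of the differences by day, -0.15, -0.43, -0.32 and -0.42, passed (adjusted p = 0.656, 0.206, 0.188 and 0.0563). That of day 21 passed without any 1 of 6 arrays, BDL replicates 1, 3 and 5 of day 1, sham replicates 2 and 3 of day 1 and sham replicate 1 of day 7 (adjusted p down to 0.0209). Over the mean of days Amacr was lower by a small amount (-0.30 ± 0.10, adjusted p = 0.0307), a call that was lost when a single sham array was left out, namely replicate 2 of day 1, either of day 3 or replicate 2 of day 7 (adjusted p up to 0.0896). The log2 value of Acox2 minus that of Amacr was larger in BDL than in sham by 0.70 over the mean of days (exact permutation p = 2.02e-05; adjusted p = 4.05e-05 over 6 pairs). At day 7 this value was -0.35 to 0.21 in BDL and -1.0 to -0.50 in sham, without overlap.

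**Figure D3:**
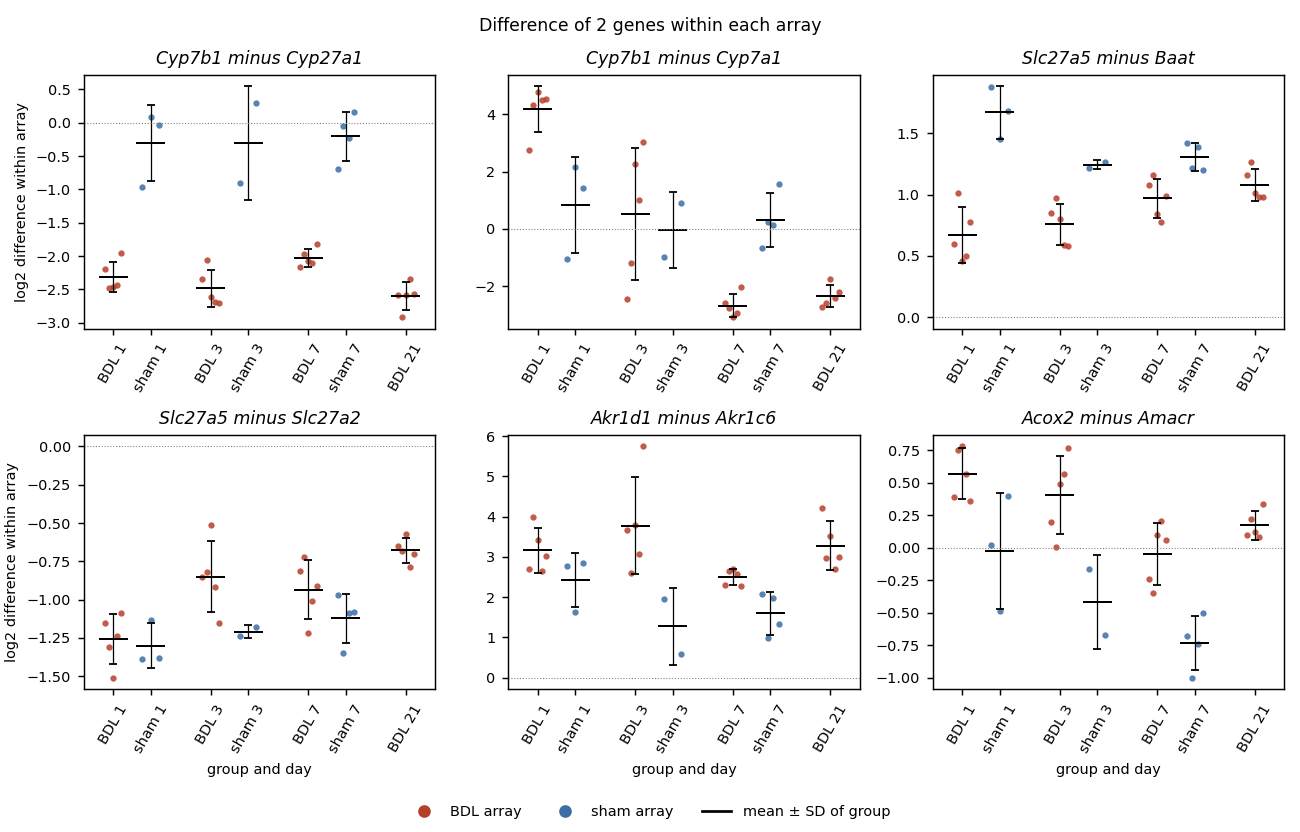
Difference of the log2 values of 2 genes within each array (vertical axes differ between panels) by group and day, 1 point per array, BDL in red, sham in blue, black lines for the mean ± SD. Only the distance between BDL and sham can be read, since levels of different genes are not on a common scale. Cyp7b1 minus Cyp27a1 averages -2.49 to -2.03 in BDL and -0.30 to -0.21 in sham at days 1, 3 and 7, while Cyp7b1 minus Cyp7a1 averages 4.17 in BDL at day 1 and -2.69 at day 7.

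The BDL groups of different days were also set against each other. Between BDL day 3 and BDL day 1, Akr1d1 was higher by 0.51 ± 0.15 (adjusted p = 0.0204) and Slc27a5 by 0.42 ± 0.13 (adjusted p = 0.0221), against 18.5% of all genes that passed in either direction. Both calls were lost when BDL replicate 3 or 4 of day 1, or BDL replicate 2 of day 3, was left out, and that of Slc27a5 also when replicate 1 of day 3 was (adjusted p up to 0.0887 and 0.0895). Between BDL day 21 and BDL day 1 the same genes passed as higher, Akr1d1 by 0.53 ± 0.15 (adjusted p = 0.00894) and Slc27a5 by 0.67 ± 0.13 (adjusted p = 0.000194), against 32.1% of all genes. No member passed in limma between BDL day 7 and BDL day 3 (5.69% of all genes) or between BDL day 21 and BDL day 7 (0.864%). At an unadjusted p below 0.05, 5 and 1 of the 10 did, against 19.2% and 8.15% of all genes. Near the threshold, the difference of Baat between BDL day 3 and BDL day 1 was 0.33 ± 0.12 (adjusted p = 0.0527), and that of Acox2 between BDL day 7 and BDL day 3 was -0.36 (adjusted p = 0.0586). Each passed without any 1 of 5 arrays (adjusted p down to 0.0114 and 0.0202).

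Among sham livers, 1 member differed between day 1 and day 7 (4.11% of all genes). Baat was lower at day 1 (log2 difference -0.61 ± 0.15, adjusted p = 0.0273). The day 1 mean was 9.43 ± 0.46 (SD, n = 3) and the day 7 mean 10.04 ± 0.11 (SD, n = 4), and the groups overlapped. Sham day 1 replicates 1 and 3, at 9.18 and 9.16, stood below replicate 2 at 9.96. The call was lost without either of these narrow arrays or without sham day 7 replicate 3 or 4 (adjusted p up to 0.237). Without all 4 narrow arrays, which leaves a lone sham array of day 1, the difference of Baat was -0.08. Amacr differed by a like amount between sham day 1 and sham day 7, -0.62 ± 0.18, and just missed the threshold (limma adjusted p = 0.0529). It passed without any 1 of 6 arrays, and leaving out 1 array gave an adjusted p of 0.00211 to 0.407. Between sham day 3 and sham day 7 no gene of the 14699 passed in limma (0% of all genes, 627 genes at an unadjusted p below 0.05), the members included.

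The effect of ligation itself was tested between days. No member passed for the effect at day 3 minus that at day 1 (0.0748% of all genes, 11 genes), at day 7 minus that at day 1 (4.33%) or at day 7 minus that at day 3 (0.0544%, 8 genes). At an unadjusted p below 0.05, 1, 1 and 2 members did in these tests, against 10.3%, 17.3% and 8.08% of all genes. The change of a call from day to day is therefore not shown to be a change in the effect.

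For day 1, membership of the set of 4 narrow arrays was added to the model. The day 1 difference was then -2.48 for Cyp7b1, -0.79 for Hsd3b7, -0.86 for Slc27a5, -0.83 for Slc27a2 and 0.41 for Acox2, and the same 5 genes passed. Within the 4 narrow arrays the values were -2.17, -0.92, -0.74, -0.71 and 0.36, of which those of Slc27a5, Slc27a2 and Acox2 did not pass (adjusted p = 0.114, 0.0996 and 0.376), while Akr1c6 did (-1.17, adjusted p = 0.0191). The other day 1 arrays hold a lone sham array, so only sizes are given for them. For the same 5 genes these were -2.89, -0.62, -1.02, -0.99 and 0.47. The other members had these values within the narrow and then the other day 1 arrays. They were -0.20 and -0.61 for Cyp27a1, -0.28 and -0.15 for Akr1d1, and -1.17 and -1.31 for Akr1c6. Baat had 0.31 and -0.19, with opposite signs, and Amacr had -0.19 and -0.45.

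Markers of other cell types moved with ligation in these whole livers. Of 9 cholangiocyte markers tested, 2, 7, 8 and 8 were higher at days 1, 3, 7 and 21. The shares of all genes tested at these days were 4.8%, 3.69%, 4.97% and 7.9% lower and 8.52%, 6.47%, 14.2% and 17.3% higher. Of 11 macrophage markers, 5, 7, 11 and 11 were higher (Clec4f, named after its value was seen, was lower at day 1), and of 10 stellate cell and fibroblast markers 0, 3, 8 and 9 were (Reln, named likewise, was lower at day 1). Of 8 markers of sinusoidal endothelium 5, 2, 0 and 3 were lower and 0, 1, 1 and 2 higher at these days. Of 7 neutrophil and lymphocyte markers 0, 0, 1 and 1 were lower and 2, 1, 3 and 3 higher. The mean log2 level of the stellate cell list was 6.31 to 7.12 in BDL and 6.57 to 7.06 in sham at day 1, and 8.35 to 8.76 in BDL and 7.01 to 8.48 in sham at day 7. The mean of the macrophage list was 7.10 to 7.95 in BDL and 6.71 to 7.20 in sham at day 1, and 8.53 to 9.0 in BDL and 6.85 to 7.29 in sham at day 7. That of the cholangiocyte list was 5.44 to 5.87 in BDL and 5.21 to 5.62 in sham at day 1, and 6.24 to 6.50 in BDL and 5.26 to 5.64 in sham at day 7. Of 13 hepatocyte markers 1, 2, 2 and 2 were lower and 0, 2, 1 and 1 higher. The markers that passed were Ttr, lower at days 1, 3 and 7, Apoa2, lower at days 3, 7 and 21, Asgr1, lower at day 21, Ambp, higher at days 3, 7 and 21, and Tat, higher at day 3. The mean over these 13 markers lay between 12.20 and 12.49 in every array, and its median difference was 0.05, 0.01, 0.03 and 0.06 at days 1, 3, 7 and 21. The part of the other markers in the member results was not tested, and in bulk tissue fewer cells of a type and less RNA per cell cannot be told apart.

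The list of other enzymes and carriers of bile acid and oxysterol metabolism held 19 genes, of which 14 were tested. Those that passed were 4 lower and 0 higher at day 1, 6 and 1 at day 3, 5 and 1 at day 7 and 7 and 2 at day 21. Over all genes tested, 4.8%, 3.69%, 4.97% and 7.9% were lower and 8.52%, 6.47%, 14.2% and 17.3% higher at these days. Abcd3, the carrier that brings bile acid precursors into the peroxisome, was lower at all 4 days, with log2 differences of -0.57, -1.26, -0.64 and -0.80 (adjusted p at most 0.0035). Scp2, the thiolase and sterol carrier of the last side chain step, passed as lower at all 4 days, by -0.52 ± 0.10 at day 1 and -0.68 ± 0.10 at day 21. Hsd17b4, the bifunctional enzyme between Acox2 and Scp2, passed as lower at all 4 days too (-0.49 ± 0.10 at day 1). Acnat2, a mouse acyltransferase related to Baat, was the gene of the list that passed as higher at days 3, 7 and 21, and its difference was 1.27 ± 0.33 at day 21 (adjusted p = 0.00475) and 1.04 ± 0.21 over the mean of days (adjusted p = 0.000352). Leaving out 1 array could lose its calls of day 3 and day 7 (adjusted p up to 0.661 and 0.0586). Cyp2a12, named after its result was seen, was the other gene higher at day 21. Acnat1, of the same family as Acnat2 and named likewise, went the other way over the mean of days (-0.49 ± 0.13, adjusted p = 0.00577). Over the mean of days the list had a median of -0.36, against 0.02 over all genes tested.

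Of 27 peroxisome genes tested, which include Abcd3, Scp2 and Hsd17b4, 9 were lower and 1 (Pex2, named after its result was seen) was higher at day 1, 14 and 0 at day 3, 9 and 0 at day 7, and 13 and 0 at day 21. The shares of all genes at these days are those given for the preceding list. The median of the peroxisome genes was -0.36 over the mean of days. Acaa1b, a thiolase, was lower at day 1 (-1.34 ± 0.32), day 3 (-2.45 ± 0.37) and day 21 (-1.55 ± 0.29). Pex11a, which helps peroxisomes to divide, was lower at day 7 (-0.78 ± 0.13) and day 21 (-1.03 ± 0.13). Among members that act in peroxisomes are Acox2, which was higher over the mean of days, and Slc27a2 and Amacr, which were lower.

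Of 22 known regulators of bile acid synthesis tested, 5 were lower and 1 higher at day 1, 3 and 2 at day 3, 5 and 1 at day 7, and 5 and 1 at day 21, where the shares of all genes are those given for the preceding lists. Their median was -0.16 over the mean of days. Cebpa, a transcription factor of hepatocytes, was lower at all 4 days, with differences of -1.17 ± 0.14, -1.0 ± 0.16, -0.58 ± 0.13 and -0.69 ± 0.13. Ppara, the fatty acid receptor that drives peroxisomal genes, was lower likewise (-1.06 ± 0.16, -0.94 ± 0.18, -0.99 ± 0.14 and -1.38 ± 0.14). Nr1h4, the bile acid receptor, also passed as lower at all 4 days (-1.0 ± 0.13 at day 1 and -0.63 ± 0.12 at day 21). Nr1i2, a receptor for foreign compounds and some bile acids, was higher by 0.89 ± 0.15 at day 1, 1.03 ± 0.17 at day 3 and 0.66 ± 0.14 at day 7. Each change given here with a value had an adjusted p of at most 0.0016.

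Relatives of the members were compared as a family check. Of 19 tested, 6 were lower and 0 higher at day 1, 5 and 2 at day 3, 2 and 4 at day 7, and 6 and 3 at day 21, with a median of -0.40 over the mean of days. Over all genes tested, 4.8%, 3.69%, 4.97% and 7.9% were lower and 8.52%, 6.47%, 14.2% and 17.3% higher at these days. Hsd3b5, a male-biased relative of Hsd3b7, stood at 3.27, 3.25, 2.99 and 2.99 in BDL at days 1, 3, 7 and 21, under the level of 5, against 8.38, 8.83 and 9.67 in sham at days 1, 3 and 7. Akr1c14, a relative of Akr1c6, was lower at all 4 days (-1.87 ± 0.31, -1.94 ± 0.36, -0.97 ± 0.29 and -1.35 ± 0.29). Members of the Akr1c and Hsd3b families share much of their sequence, so the split between them is uncertain.

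**Figure D4:**
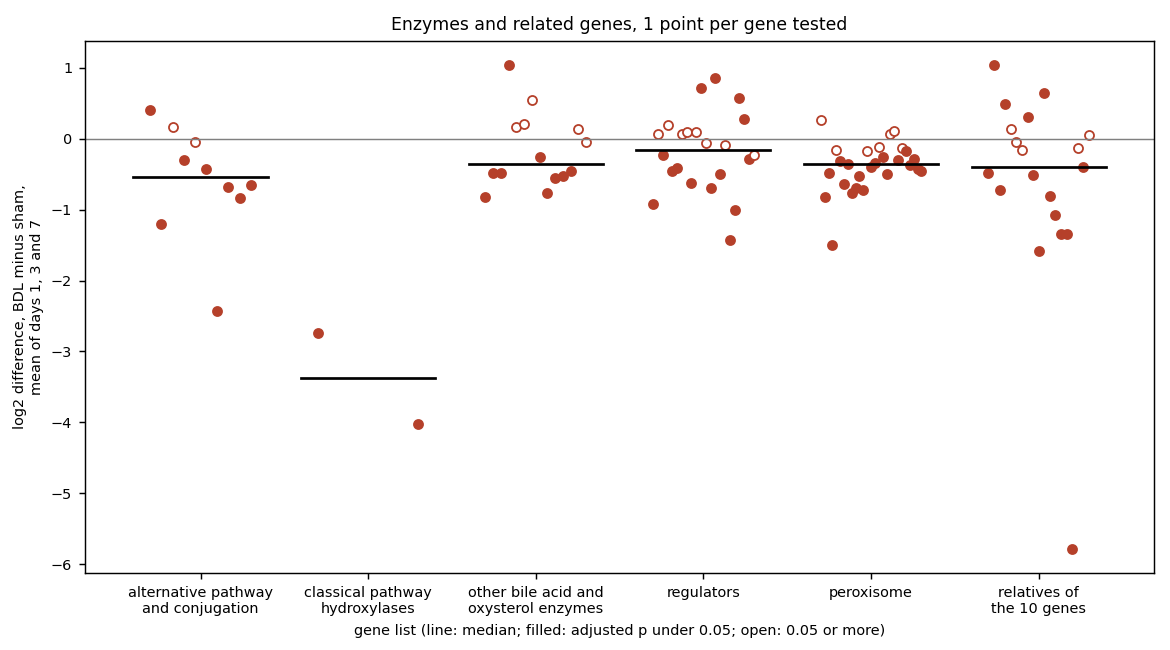
Log2 difference between BDL and sham livers over the mean of days 1, 3 and 7 (vertical axis), 1 point per gene tested, for the 10 members and 5 related gene lists (horizontal axis). Filled points have an adjusted p below 0.05, open points do not, and the line is the median of each list. The medians are -0.54 for the members, -3.38 for Cyp7a1 and Cyp8b1, -0.36 for the other bile acid enzymes, -0.16 for the regulators, -0.36 for peroxisome genes and -0.40 for relatives of the members.

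The members varied over different spans. The distance between the highest and the lowest of the 7 group means was 2.92 for Cyp7b1, 2.13 for Akr1c6, 1.12 for Slc27a5, 1.08 for Slc27a2 and 1.01 for Hsd3b7. It was 0.53 to 0.78 for the other 5. Seen over all 29 arrays, with each gene set to its own mean, Baat and Amacr were the members nearest to each other (root mean square difference 0.207), and Cyp7b1 and Acox2 were the farthest apart (1.45). For the 5 members with a span of at least 1, the nearest other genes were named by the same measure, as a description with no test. Predicted genes, with symbols of the Gm, Rik or LOC kind, were passed over, so a nearer one may exist. They were Nudt7 (0.385), which splits coenzyme A in peroxisomes, and Cyp2d13 (0.409) for Cyp7b1, and Ephx2 (0.138), the soluble epoxide hydrolase, and Abcd3 (0.158) for Slc27a2. For Slc27a5 they were F13b (0.157), a subunit of a clotting factor, and Dpyd (0.160), the first enzyme of pyrimidine breakdown. For Hsd3b7 they were the adiponectin receptor Adipor2 (0.195) and the peroxisomal protease Lonp2 (0.207), and for Akr1c6 the calcium-binding protein Rgn (0.503) and the acyl coenzyme A synthetase Acsm5 (0.514). Nudt7 stood at 8.63 ± 0.28 (SD, n = 5) in BDL and 10.69 ± 0.71 (n = 3) in sham at day 1, and at 9.18 ± 0.20 (n = 5) in BDL and 11.33 ± 0.16 (n = 4) in sham at day 7. At day 3 it stood at 8.31 ± 0.48 (n = 5) in BDL and 10.85 ± 1.71 (n = 2) in sham, the widest spread of its groups.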

How the data were processed

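Liver RNA was measured on 29 arrays in 7 groups, set by the treatment and time labels. Replicate numbers follow accession order and only name an array. The deposited values are log2 expression, which the authors made, per the submitters' processing notes, with RMA from oligo 1.52.0. The method corrects background, equalises the arrays and summarises probes, so a change of total RNA is not seen and values near the floor or the ceiling are compressed. The protocol in the labels gives the Mouse Genome 430 2.0 design, but the row numbers are those of Mouse Gene 2.0 ST, whose platform annotation supplied the gene names.

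Of 41345 rows, 23521 carry 1 gene symbol, 1814 carry several and 16010 are unnamed here. Of the rows with 1 symbol, 23328 matched a RefSeq gene table (GRCm38.p6) and took their symbol from it. The row of highest mean was kept for each of 22180 genes, and 14699 with a log2 value over 5 in at least 3 arrays were tested.

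With limma 3.58.1 (R 4.3.3), a linear model of group means was fitted over the 29 arrays and moderated by eBayes, two-sided, with Benjamini-Hochberg adjustment over all genes tested and a threshold of 0.05. It was tested on simulated data. Differences are BDL minus sham, or later minus earlier day for BDL. Pairs of genes were compared by exact permutation within days over 148176 relabellings. The alternatives were other filters, other scaling (cyclic loess, median centring), array weights, the mean of a gene's rows, only the arrays compared, all 9 sham arrays together, the day 1 array set, and leaving out each array. Named genes are the 10 members, Cyp7a1, Cyp8b1, and up to 4 called genes of largest change per list and comparison. The 2 genes of most like pattern, predicted genes passed over, were also named for each member with a span of at least 1. The members and lists were chosen with earlier results of these data known. Precision is limited by the number of arrays.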

Additional observations from a re-analysis of the deposited data

Results flagged for a closer look

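An array far from the others of its group was found for 3 of 50 member groups examined, and chance gives about 1 in 20. Cyp7b1 in BDL day 7 replicate 5 stood at 9.02, with the other 4 arrays at 8.70 to 8.76. Hsd3b7 in BDL day 21 replicate 1 stood at 8.89, with the others at 9.75 to 9.99. Acox2 in BDL day 3 replicate 2 stood at 10.14, with the others at 10.47 to 10.54.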

How the results depend on the processing

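No paired analysis was possible because the titles give each array an animal number of its own and the replicate numbers are accession order. Of the members' values, 551 kept direction and side of the threshold over the alternatives other than leaving out an array, 33 gained a call, 29 lost one and 7 changed sign, and of those that left out 1 array these counts were 1517, 18, 57 and 3. Each of the 7 was Baat, which passed in none of the main comparisons with sham: at day 1 -0.22 against all 9 sham arrays and -0.19 without the 4 narrow arrays, as within the other day 1 arrays (added after seeing the data), with all 9 sham arrays also 0.11 for day 3, 0.05 for day 7 and 0.04 for day 21, and 0.01 over the mean of days with array weights. The causes were not tested. The count of members lower was 7 at day 1 against all 9 sham arrays, at day 7 was 6 with cyclic loess or array weights and 5 with only the arrays compared or all 9 sham arrays, and at day 21 was 3 with median centring. Lower calls over all genes moved too. At day 7 they were 948 with cyclic loess, against 731 in the main fit, and at day 21 they were 735 with median centring, against 1161. Shares of all genes are not given for the other alternatives, so the member counts there have no background beside them. The count higher at day 1 was 0 with cyclic loess, with only the arrays compared, without the 4 narrow arrays and within either day 1 array set, and 2 with array weights. It was 2 at day 3 against all 9 sham arrays, and at day 7 was 2 with array weights or without the 4 narrow arrays and 0 against all 9 sham arrays.

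Single days hold fewer arrays, and day 3 alone cannot go below an exact permutation p of 0.0476. The gap was -2.18 for Cyp7b1 minus Cyp27a1, -0.49 for Slc27a5 minus Baat, 2.50 for Akr1d1 minus Akr1c6, 0.83 for Acox2 minus Amacr and 0.36 for Slc27a5 minus Slc27a2 at day 3 alone, and none passed there. At day 1 alone it was 0.74 for Akr1d1 minus Akr1c6, 0.59 for Acox2 minus Amacr, 0.04 for Slc27a5 minus Slc27a2 and 3.32 for Cyp7b1 minus Cyp7a1, which passed there. At day 7 alone it was 0.19 for Slc27a5 minus Slc27a2 and -2.99 for Cyp7b1 minus Cyp7a1. Without the 4 narrow arrays it was 0.17 for Slc27a5 minus Slc27a2 and -0.22 for Cyp7b1 minus Cyp7a1. Leaving out 1 array gave 0.17 to 0.23 and -0.01 to 0.62 for these pairs, -0.39 to 0.10 for Amacr at day 1 and -0.08 to 0.05 for Baat over the mean of days. It gave 3 to 7 members lower at day 21, and 0 to 2 higher at day 1, 0 to 1 at day 3, 0 to 1 at day 7, 1 to 2 at day 21 and 1 to 2 over the mean of days. Shares of all genes in these fits are not given here. Where a lone sham array was left, it was assumed to vary like the other groups. The median of all genes was 0.128 with median centring, against 0.024, for BDL day 21 minus BDL day 1, whose calls were 3208 higher and 1510 lower, and 4171 and 667 with it. Between sham day 1 and sham day 7 the calls were 169 higher and 435 lower, 184 and 281 with cyclic loess and 114 and 644 with median centring.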
